A study of Mus musculus with 6 samples.

Results

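Tubulin genes and the genes of the enzymes that modify tubulin were followed in cultured mouse tracheal epithelium. The set was chosen by symbol: all alpha-, beta-, gamma-, delta- and epsilon-tubulins, the tubulin tyrosine ligase-like genes (*Ttll*), the *Agbl* carboxypeptidases, and *Atat1*, *Hdac6*, *Vash1*, *Vash2*, *Svbp* and *Tppp3*. It held 38 of the 20483 genes in the count table. The cells were primary tracheal airway cells of C57BL/6 mice, 12 weeks old, differentiated at air-liquid interface, from 3 WT mice (WT/WT) and 3 DNAAF5 mutant (MT) mice. The MT mice were homozygous for a *Dnaaf5* missense allele (MIS/MIS) made by CRISPR, which is present in all cell types. The paper describes the WT mice as their littermates. *Dnaaf5* encodes a factor that helps preassemble the dynein motors of motile cilia. Each mouse gave 1 droplet library that counts unique molecular identifiers (UMIs) at the 3′ end of transcripts, and the authors sorted the 23871 cells into 16 named cell types.

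Microtubules are polymers of alpha- and beta-tubulin, and each motile cilium is built around a ring of microtubule doublets. Alpha and beta isotypes differ mostly in their C-terminal tails, which point outward and carry the modifications that cilia are known for. TTLL enzymes add glutamate or glycine chains to the tails, AGBL enzymes trim glutamates, vasohibins (VASH) with their partner SVBP remove the final tyrosine of alpha-tubulin, and ATAT1 and HDAC6 add and remove acetyl groups on alpha-tubulin. Gamma-tubulin seeds microtubules, and delta- and epsilon-tubulin are needed for the triplet microtubules of centrioles and basal bodies.

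The 60 coding bases before the stop codon are shown for 5 isotypes that the results describe, since these bases encode the tail on which TTLL and AGBL enzymes act. They were read from GENCODE M21 on GRCm38 (mm10), 5′ to 3′ on the coding strand, with in-frame glutamate codons (GAA or GAG) in capitals. All of these stretches are coding exon sequence.
Tuba4a (chr1:75215625-75215684, minus strand): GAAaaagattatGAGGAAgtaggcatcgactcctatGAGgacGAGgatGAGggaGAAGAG
Tubb4b (chr2:25222311-25222370, minus strand): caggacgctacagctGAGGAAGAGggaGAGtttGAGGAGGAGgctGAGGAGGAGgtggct
Tubb5 (chr17:35834985-35835044, minus strand): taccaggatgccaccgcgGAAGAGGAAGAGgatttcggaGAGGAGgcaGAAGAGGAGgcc
Tubb2a (chr13:34074471-34074530, minus strand): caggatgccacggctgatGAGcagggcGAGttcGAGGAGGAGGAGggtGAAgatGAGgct
Tubb3 (chr8:123421620-123421679, plus strand): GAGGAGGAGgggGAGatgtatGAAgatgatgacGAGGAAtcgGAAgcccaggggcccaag

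Of these 5, *Tubb4b* had the most glutamate codons among its last 20 codons, with 10, followed by *Tubb5* with 9, and *Tuba4a*, *Tubb2a* and *Tubb3* each had 8. *Tuba4a* ended in a glutamate codon (gag). The coding sequence of *Tuba1a* was 98.3% identical to that of *Tuba1b* and 97.2% identical to that of *Tuba1c*, and *Tubb2a* and *Tubb2b* were 96.5% identical. The last 200 bases of the annotated transcripts were less alike, with 48.6% identity for *Tuba1a* and *Tuba1b* and 50.9% for *Tubb2a* and *Tubb2b*. How reads shared by these near-identical genes were assigned is not given in the sources used here, so the levels of these 5 genes relative to each other are less certain than those of the rest.

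Levels are given as CPM, a gene's UMIs for each 1000000 UMIs of all genes, both summed over the cells of 1 cell type or class. A transcript counts once whatever its length, so levels of isotypes do not depend on length. The limit given above for near-identical genes still holds where isotypes are set side by side. The 6 libraries held 2673 to 6710 cells and 100961835 to 153326568 UMIs each, with a median of 21328 UMIs per cell in MT1383 and of 27481 to 35383 in the other 5. The share of multiciliated cells was 11.7% to 16.2% in WT mice, and 16.2%, 24.4% and 32.1% in MT mice. Of the cell barcodes, 67 occurred in 2 libraries. Ciliary markers were highest in Multiciliated2, Multiciliated3 or Multiciliated4, and ionocyte and neuroendocrine markers in the types so named. The cell type called Basal8 was at 43.04 CPM for the basal keratin *Krt5* and 9754 CPM for the secretory enzyme *Cyp2f2*. Basal4, the cell type with the highest *Krt5*, was at 942 and 5933 CPM. For these 2 genes alone Basal7 was close to Basal8, at 68.6 and 8031 CPM. Other markers set them apart. The basal keratin *Krt14* was 793 CPM in Basal7 and 44.8 CPM in Basal8, and the secretory marker *Scgb1a1* 11.1 and 177 CPM. *Cyp2f2* was also 8598 CPM in Basal2 and 8049 CPM in Basal5, but 1773, 5181 and 3879 CPM in Basal1, Basal3 and Basal6. The secretory marker *Scgb3a2* was 214 CPM in Basal8, against 13504 CPM in Secretory1. These markers do not settle what Basal7 and Basal8 are, so both are called here only by their numbers. Basal6 was highest for the cycling markers *Mki67*, *Top2a* and *Cenpf*, and Multiciliated2 for *Mcidas*, *Ccno* and *Deup1*, genes of early ciliogenesis. Multiciliated1 held less of the ciliary marker *Foxj1* (72.5 CPM, against 344 CPM in Multiciliated3) together with secretory markers. Its *Cyp2f2* (9318 CPM) and *Muc5b* (2.13 CPM) were close to Secretory1 (9436 and 2.53 CPM), and its *Scgb3a2* was lower (1637 against 13504 CPM). Multiciliated4 (146 cells) had a median mitochondrial share of 1.29% and a median of 10197 UMIs per cell, against 8.51% and 26360 UMIs in Multiciliated3.

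Of the 38 genes, 30 reached 10 CPM in at least 1 of the 15 cell types with 100 cells or more. Of these 30, 19 were highest in a multiciliated cluster (8 in Multiciliated2, 5 in Multiciliated3 and 6 in Multiciliated4), 5 in neuroendocrine cells, 3 in Basal6, 2 in Basal7 and 1 in Basal1. The other 8 (*Tuba8*, *Tubg2*, *Ttll8*, *Ttll11*, *Ttll13*, *Hdac6*, *Vash1* and *Vash2*) peaked at 0.0941 to 9.92 CPM. *Ttll11* had its peak, 9.92 CPM, in Basal8, where MT1301 was at 13.0 CPM and the other 4 mice with enough cells between 2.25 and 9.36 CPM. Because the cell types are clusters of these same cells, differences between them are described and not tested.

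Multiciliated cells drew most of their alpha-tubulin UMIs from *Tuba1a*. *Tuba1a* was 2218 ± 148 CPM in Multiciliated3 (SD, n = 6 mice) and 2420 ± 394 CPM in Multiciliated4 (n = 5), against 22.2 ± 5.29 CPM in Secretory1 and 12.5 ± 2.54 CPM in Basal3. Multiciliated1 and Multiciliated2 lay between, at 454 ± 85.2 and 716 ± 69.3 CPM. *Tuba1a* thus supplied 75.8% ± 0.74 of alpha-tubulin UMIs in Multiciliated3 and 3.39% ± 1.1 in Secretory2. Outside the multiciliated clusters it was a major isotype in neuroendocrine cells (66.4% of alpha-tubulin UMIs, 163 cells, 108 of them from MT1383) and reached 101 ± 42.5 CPM in Basal1, where WT mouse 2 was lowest at 27.9 CPM.

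*Tuba1b*, a broadly used alpha isotype, was highest in Multiciliated2, at 1238 ± 117 CPM, where it made up 59.5% ± 3 of alpha-tubulin UMIs. In Multiciliated3 it was 595 ± 25.1 CPM and 20.4% ± 0.72. The pooled ratio of Multiciliated2 to Multiciliated3 was 2.05 for *Tuba1b* and 0.338 for *Tuba1a*, so the order of the 2 genes differed between these clusters. Cycling Basal6 cells also had a high *Tuba1b* level, 616 ± 92.9 CPM, or 6.24 times the pooled level of Basal3.

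*Tuba1c* and *Tuba4a* went the other way. *Tuba1c* was 156 ± 15.6 CPM in Secretory1 and 295 ± 47.7 CPM in Basal6, but 58.1 ± 8.42 CPM in Multiciliated3. *Tuba4a*, an isotype with no encoded final tyrosine, was 105 ± 16.5 CPM in Secretory1 and 33.3 ± 6.78 CPM in Multiciliated2. They made up 36.1% ± 2.9 (*Tuba1c*) and 29.7% ± 2.1 (*Tuba4a*) of the alpha-tubulin UMIs of Secretory2, and 1.98% ± 0.22 and 1.79% ± 0.37 of those of Multiciliated3.

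*Tubb4b*, the beta isotype known from axonemes, was the leading beta-tubulin in all 16 cell types. Its share of beta-tubulin UMIs was 48.2% in Basal1 and 55.6% to 72.3% in the other cell types outside the multiciliated clusters. The share was 80.6% ± 1.4 in Multiciliated1, 93.6% ± 1.3 in Multiciliated2 and 95% ± 0.36 in Multiciliated3. As a level, *Tubb4b* was 539 ± 55 CPM in Secretory1, 2699 ± 315 CPM in Multiciliated2, 2890 ± 338 CPM in Multiciliated3 and 3759 ± 458 CPM in Multiciliated4. The levels in Multiciliated2 and Multiciliated3 differed by less than the SD among mice.

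*Tubb5* peaked in Basal6 at 904 ± 96.9 CPM and supplied 40.4% ± 2.6 of beta-tubulin UMIs there, against 59.8 ± 5.04 CPM and 1.98% ± 0.24 in Multiciliated3. Its share was not particular to cycling cells. In Basal1, where *Mki67* was 0.86 CPM, it was 37.6% ± 3.2. *Tubb2a* was highest in Basal7 (143 ± 44.9 CPM, n = 5) and Secretory1 (161 ± 27.4 CPM), 2 means that lay within 1 SD of each other. It was lowest in Multiciliated2, at 20.7 ± 9.4 CPM. *Tubb6* was 25.4 ± 9.78 CPM in Basal6 and 18 ± 7.03 CPM in Basal1, and 0.17 ± 0.184 CPM in Multiciliated3. Summed over alpha- and beta-tubulins, the level was 5967 ± 505 CPM in Multiciliated3 and 4961 ± 422 CPM in Multiciliated2, against 3291 ± 410 CPM in Basal6 and 1303 ± 110 CPM in Secretory1.

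**Figure D1:**
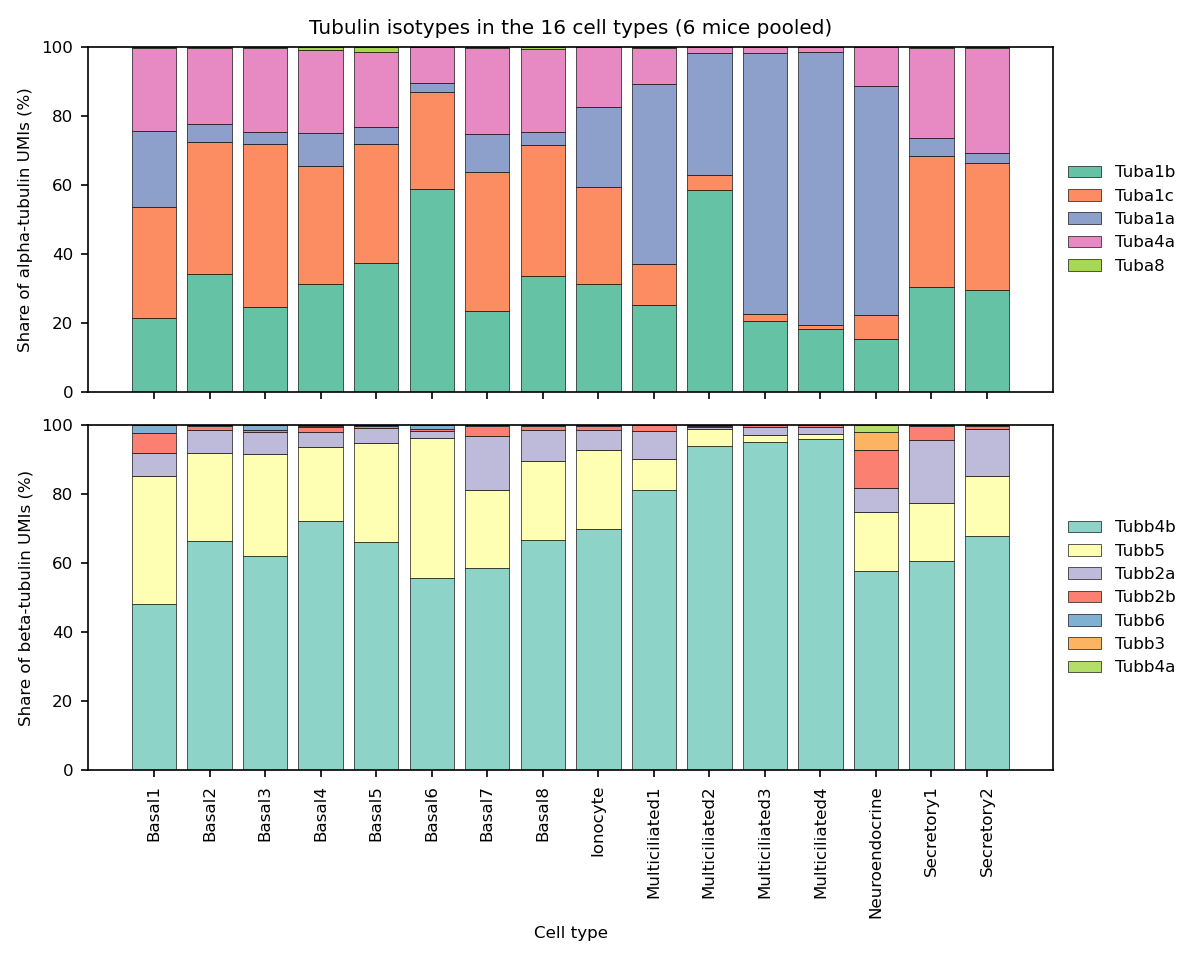
Stacked bars give each isotype's share, in percent, of the alpha-tubulin UMIs (upper panel) and beta-tubulin UMIs (lower panel) of each of the 16 cell types, with the 6 mice pooled. *Tuba1a* fills 75.7% of the alpha bar and *Tubb4b* 95.1% of the beta bar in Multiciliated3, while *Tuba1b* fills 58.5% of the alpha bar in Multiciliated2.

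Neuroendocrine cells held isotypes that were close to 0 elsewhere. *Tubb3*, the neuronal beta isotype, was 26.6 CPM in these cells (53 UMIs) and at most 1.18 CPM in any other cell type, and *Tubb4a* was 11.03 CPM (22 UMIs) against at most 0.14 CPM. *Tubb2b* was 57.2 CPM in neuroendocrine cells, 41.6 ± 12 CPM in Basal1 and 38.2 ± 4.78 CPM in Secretory1. Among enzymes, *Ttll7*, a glutamylase, was 119.9 CPM and *Agbl4* 24.1 CPM. *Ttll6*, *Ttll9* and *Agbl2* had 0 UMIs there, which allows a level of up to 1.5 CPM (3 counts, counting error only). Only MT1383 gave 20 neuroendocrine cells or more, so no spread among mice and no genotype comparison could be given. In the 28 ionocytes *Ttll7* was 72.1 CPM (50 UMIs).

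Epsilon- and gamma-tubulin (*Tube1* and *Tubg1*) peaked in Multiciliated2, the cluster of early ciliogenesis genes. *Tube1* was 23.8, 20.1 and 18.6 CPM in Multiciliated2 of the WT mice and 22.1, 23.1 and 26.5 CPM in the MT mice. Its pooled level was 11.2 times that of Multiciliated3 and its next highest cell type was Basal6, at 5.86 ± 1.11 CPM. *Tubg1* was 58.7 ± 6.12 CPM in Multiciliated2 and 53.4 ± 4.82 CPM in Basal6, a difference within the SD of Multiciliated2, and 19.2 ± 1.52 CPM in Multiciliated3. *Tubd1* (delta-tubulin) was 11.6 ± 2.5 CPM in Multiciliated2, 11.6 ± 7.53 CPM in Multiciliated4 (20 UMIs in all), 9.1 ± 0.913 CPM in Multiciliated3 and 4.23 ± 0.93 CPM in Secretory1. The second gamma-tubulin gene, *Tubg2*, was low, with its highest pooled level, 5.52 CPM (11 UMIs), in neuroendocrine cells and 0.327 ± 0.36 CPM in Multiciliated2.

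The modifying enzymes were used in different orders over the multiciliated clusters. *Ttll5* and *Agbl5* had their highest mean in Multiciliated2, at 43.8 ± 8.86 and 37.7 ± 5.18 CPM, against 31 ± 1.86 and 25.3 ± 3.34 CPM in Multiciliated3. *Ttll5* is a glutamylase that starts chains, and *Agbl5* removes the branch-point glutamate. *Ttll6*, which elongates glutamate chains, was 19.9 ± 5.16 and 18.2 ± 1.44 CPM in these clusters, within the SD of Multiciliated2. *Ttll1*, the catalytic subunit of a glutamylase complex, was 25.1 ± 2.47 and 26.5 ± 1.6 CPM, within 1 SD. The glutamylase *Ttll4* was 24.5 ± 3.5 and 28 ± 1.9 CPM.

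*Agbl2*, *Agbl3*, *Ttll3* and *Ttll10* had their highest mean in Multiciliated3, the largest multiciliated cluster. *Agbl2* was 49.5 ± 9.07 CPM in Multiciliated3 and 12.3 ± 3.54 CPM in Multiciliated2, and *Agbl3* was 48.5 ± 4.53 and 26.3 ± 4.9 CPM. The glycylases *Ttll3*, which starts glycine chains, and *Ttll10*, which lengthens them, were 18.3 ± 4.68 and 20.7 ± 4.04 CPM in Multiciliated3, against 6.06 ± 1.39 and 4.55 ± 1.83 CPM in Multiciliated2. *Ttll8*, the other glycylase that starts chains, was at most 0.781 CPM. *Ttll9* and *Tppp3* were higher still in Multiciliated4. *Ttll9*, of the glutamylase family, was 28.8 ± 4.05 CPM in Multiciliated3 and 38.6 ± 9.31 CPM in Multiciliated4. *Tppp3*, a microtubule-binding protein, reached 2298 ± 163 CPM in Multiciliated3 and 2899 ± 300.3 CPM in Multiciliated4, and 457 ± 105 CPM in Multiciliated2.

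Multiciliated4 combined the highest mean *Tubb4b*, *Tuba1a*, *Tppp3* and *Svbp* levels with low levels of several enzymes. *Svbp* was 142 ± 21.2 CPM there and 75.5 ± 8.66 CPM in Multiciliated3. *Ttll3* and *Tube1* had 0 UMIs among its 1627836 UMIs, which allows up to 1.84 CPM, and *Ttll5* was 3.53 ± 4.88 CPM. The part of its low mitochondrial share and depth in these levels was not tested.

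The acetylation pair was low and present in all classes. *Atat1* was 23.4 ± 3.12 CPM in Multiciliated2, 18.4 ± 4.39 CPM in Basal1 and 9.43 ± 0.853 CPM in Secretory1, and *Hdac6* was at most 9.75 ± 1.55 CPM, in Basal1. *Vash1* and *Vash2*, the catalytic partners of *Svbp*, were at or under 0.255 CPM in all cell types, with 12 and 43 UMIs in the whole table. *Ttll12*, a family member with no settled activity, was 13.5 ± 0.855 CPM in Basal1 and 11.2 ± 1.37 CPM in Multiciliated3.

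**Figure D2:**
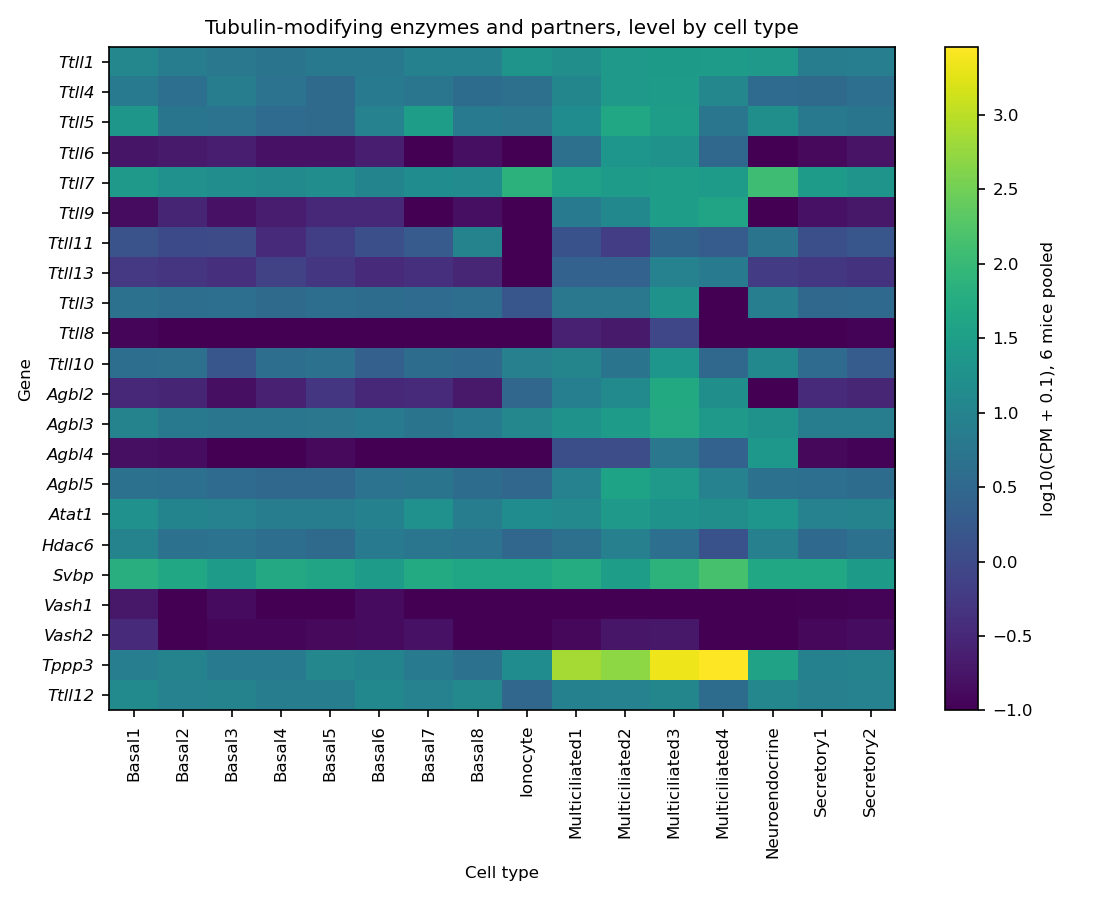
The heatmap gives the pooled level of 22 modifying enzymes and partners (rows) in the 16 cell types (columns) as log10(CPM + 0.1). *Tppp3* is brightest, in Multiciliated3 and Multiciliated4, *Ttll6*, *Ttll9* and *Agbl2* are dark in secretory and basal columns, and *Svbp* and *Ttll7* are seen in all columns.

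Low levels in secretory and basal cells were read against genes that only ciliated cells should use. The 6 ciliary markers *Foxj1*, *Dnah5*, *Dnah9*, *Dnaic1*, *Rsph1* and *Tekt1* were present in secretory cells at 0.361% to 1.19% of their multiciliated level and in basal cells at 0.327% to 0.964%. In both classes 6 genes of the set were at or under the highest of these shares: *Tppp3* (0.639% in secretory cells), *Agbl2* (0.748%), *Ttll9* (0.372%), *Ttll6* (0.289%), *Agbl4* (0.547%) and *Ttll8* (0.82%). Their share was thus no higher than that of *Rsph1*, the highest marker in both classes. The next highest marker in secretory cells was *Tekt1*, at 0.597%. Whether this signal came from the cells themselves or from RNA of other cells was not tested. *Tuba1a* was just above *Rsph1* in secretory cells (1.28%) and at 3.02% in basal cells. *Ttll13* stood at 6.65% and *Agbl5* at 16.4% in secretory cells, whereas *Tuba1c*, *Tuba4a*, *Tubb5*, *Tubb2a* and *Tubb2b* were higher there than in multiciliated cells.

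The comparison of MT with WT asks whether the *Dnaaf5* mutation goes with a change of tubulin genes. In bulk sums of this kind a change in the mix of cells and a change within cells cannot be told apart, so values within single multiciliated clusters are given as well. UMIs were summed per mouse over all multiciliated, all secretory or all basal cells, and each gene was tested with limma voom across all genes. *Dnaaf5* itself was 42.1, 38.2 and 49.4 CPM in multiciliated cells of the WT mice and 54.8, 54.9 and 49.3 CPM in those of the MT mice. A missense allele need not lower this count, so it does not check the labels.

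In multiciliated cells 0 of 33 tested genes of the set passed an adjusted p of 0.05 (limma voom with Benjamini-Hochberg adjustment, lowest adjusted p = 0.896), beside 1 of all 14206 genes (0.00704%). A second fit, limma-trend, also called 0 of them. At an unadjusted p under 0.05 there were 7 (21.2%) against 4.32% of all genes. The WT and MT mice did not overlap for 9 (27.3%) against 10% of all genes. Of the 9, 5 were higher and 4 lower in MT, beside 972 higher and 453 lower over all genes. The median log2 fold change (MT over WT) was 0.07 over the 33 and 0.01 over all genes, and 20 of the 33 lay above 0.

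The 4 genes that were lower in every MT mouse were alpha and beta isotypes with a higher level in secretory than in multiciliated cells. *Tubb2b* was 19.3, 20.02 and 20.005 CPM in the WT mice and 15.4, 12.5 and 15.4 CPM in the MT mice. The genotypes were apart by more than their own spread, with a log2 fold change of -0.47 ± 0.11 (SE), yet the adjusted p from limma voom was 0.896. *Tuba1c* was 88.3, 81.6 and 83.9 CPM in WT and 78.6, 67.2 and 70.7 CPM in MT (-0.25 ± 0.09). *Tubb2a* was 74.4, 76.6 and 73.4 CPM in WT and 73.3, 59.7 and 54.9 CPM in MT (-0.29 ± 0.11), where MT1301 lay just under the lowest WT mouse. *Tubb5* was 104, 101 and 98.4 CPM in WT and 95.3, 74.8 and 91.7 CPM in MT (-0.24 ± 0.10). Each cluster was also cut, in 1 random draw, to the same number of cells in all 6 mice (316 cells per mouse over the clusters). Variation from draw to draw was not measured. At this equal cluster composition the log2 fold changes were -0.13 for *Tuba1c* and -0.09 for *Tubb5*, against -0.55 for *Tubb2b* and -0.35 for *Tubb2a*. Without MT1306 it was -0.14 for *Tubb5*, and without MT1383 it was -0.19 for *Tubb2a*.

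The 5 genes that were higher in every MT mouse all encoded enzymes. *Agbl2* was 29.5, 23.2 and 19.5 CPM in WT and 33.2, 41.1 and 32.3 CPM in MT (log2 fold change 0.56 ± 0.17). *Ttll3* was 11.5, 9.85 and 7.7 CPM in WT and 13.7, 17 and 13.2 CPM in MT (0.57 ± 0.18). *Ttll9* was 17.2, 15.2 and 16.4 CPM in WT and 19.3, 25.2 and 21.7 CPM in MT (0.41 ± 0.13). MT1306 was the highest mouse for all 3. *Ttll13* (4.73 to 5.27 CPM in WT, 5.55 to 7.74 CPM in MT) and *Ttll11* (1.37 to 1.61 CPM in WT, 1.62 to 2.42 CPM in MT) were low, and their groups lay close to each other. At equal cluster composition the log2 fold change was 0.17 for *Ttll9* and 0.11 for *Ttll13*, against 0.46 for *Agbl2* and 0.59 for *Ttll3*.

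The leading members of each family overlapped between the genotypes. *Tuba1a* was 1380 ± 126 CPM in WT and 1444 ± 208 CPM in MT, and its log2 fold change of 0.04 had a 95% interval of -0.25 to 0.33. *Tubb4b* was 2420 ± 186 CPM in WT and 2303 ± 53.4 CPM in MT (interval -0.29 to 0.11), and *Tppp3* 1369 ± 53 and 1533 ± 147 CPM (-0.08 to 0.37). *Svbp* (-0.16 to 0.45), *Agbl3* (-0.12 to 0.38), *Ttll7* (-0.25 to 0.18), *Tubg1* (-0.39 to 0.06), *Atat1* (-0.15 to 0.45), *Ttll12* (-0.44 to 0.17) and *Ttll10* (-0.20 to 0.93) also had intervals that held 0. By family, all 4 deglutamylases and both glycylases tested lay above 0 (medians 0.27 and 0.47), 6 of 8 glutamylases lay above 0 (median 0.12), and 4 of 5 beta-tubulins lay below (median -0.24). None of these passed the test.

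**Figure D3:**
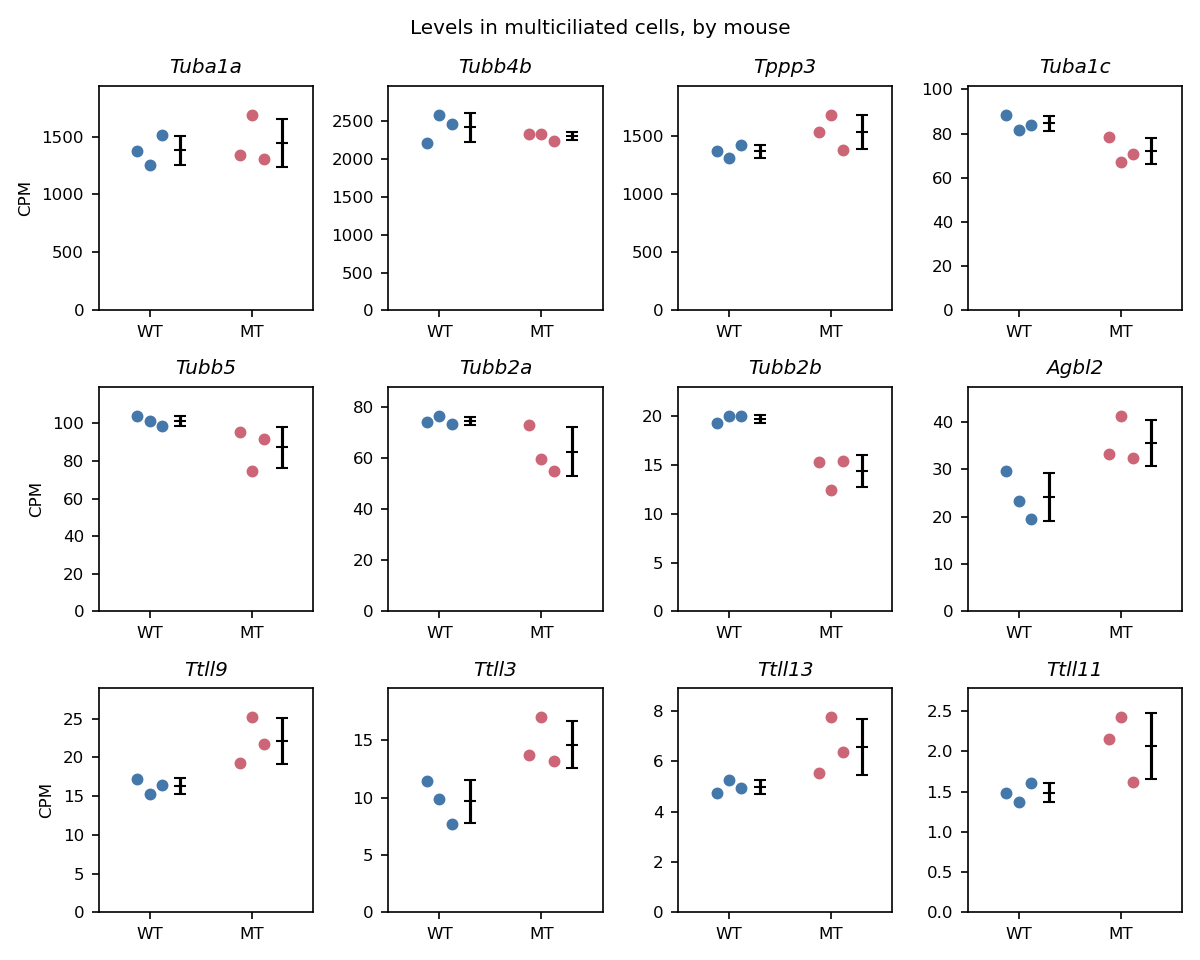
Each panel plots the level of 1 gene in CPM (vertical axis from 0) in the multiciliated cells of the 3 WT mice (blue) and 3 MT mice (red), with the mean and SD in black. *Tubb2b* lies between 19.3 and 20.02 CPM in WT and between 12.5 and 15.4 CPM in MT, whereas *Tuba1a* and *Tppp3* overlap.

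**Figure D4:**
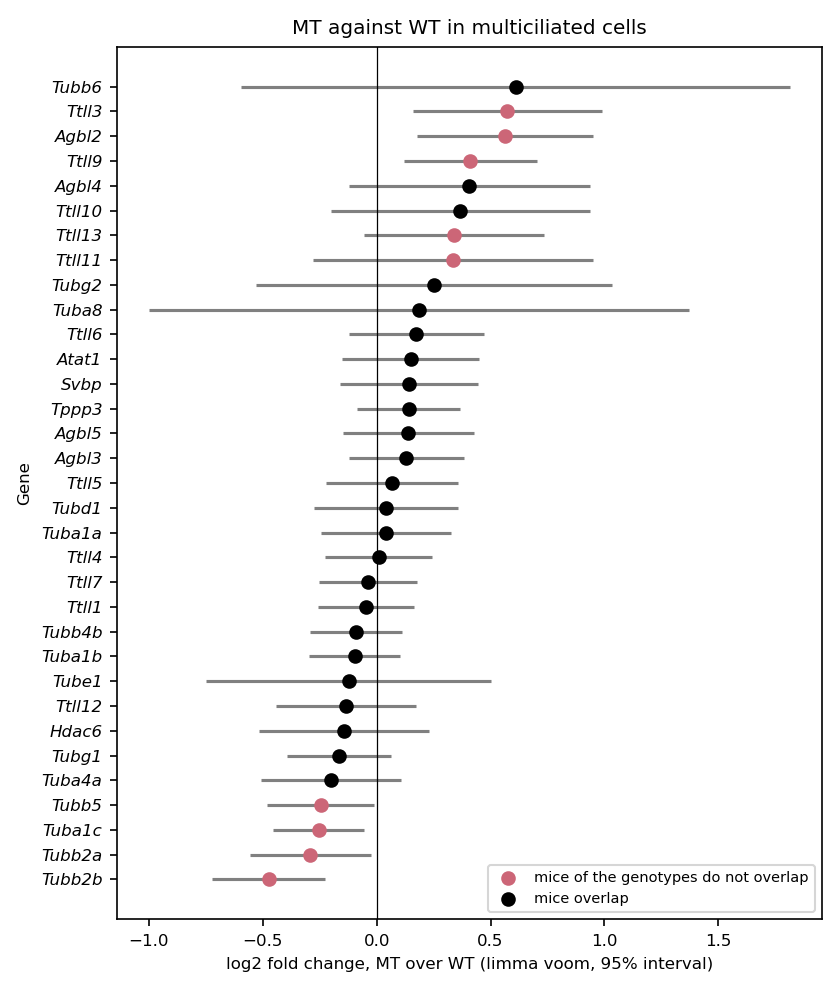
Points give the log2 fold change of MT over WT in multiciliated cells for the 33 tested genes, with 95% intervals from limma voom, and red marks the 9 genes whose mice do not overlap between genotypes. Values run from -0.47 for *Tubb2b* to 0.61 for *Tubb6*, whose interval is the widest.

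The makeup of the multiciliated sums varied among mice beside these values. Multiciliated3 held 43.0% to 58.9% of multiciliated cells in WT mice and 55.0% to 70.2% in MT mice, with MT1306 highest. The summed level of the 4 basal markers was 35.7 to 51.4 CPM in WT and 12.5 to 28.2 CPM in MT, without overlap, and that of the 6 ciliary markers was 1616 to 1748 CPM in WT and 1751 to 2090 CPM in MT, also without overlap. The 4 secretory markers (4805 to 5875 CPM in WT, 4836 to 6100 CPM in MT) and the 3 early ciliogenesis markers (204 to 349 and 130 to 257 CPM) overlapped, as did the 3 cycling markers (53.3 to 102 and 37.8 to 76.8 CPM). Most of the secretory sum was *Cyp2f2* (4571 to 5512 CPM in WT, 4582 to 4797 CPM in MT), which was not confined to secretory cells. *Scgb3a2* (194 to 946 CPM in WT, 239 to 1215 CPM in MT) and *Scgb1a1* (22.7 to 64.5 and 14.2 to 86.97 CPM) also overlapped. *Muc5b* did not, at 0.148 to 0.460 CPM in WT and 0.779 to 1.12 CPM in MT. The 7 markers of leukocytes, fibroblasts, endothelium and neurons summed to 392 to 2707 CPM in WT and 1023 to 1718 CPM in MT, almost all of it *Lyz2*, while *Ptprc* was at most 0.421 CPM and *Col1a1* was at 0 in 5 of the 6 mice. The part of these differences in the tubulin values was not tested.

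Within Multiciliated3 alone 0 of the genes of the set were called (limma voom), beside 3 of 13096 genes (0.0229%), and 8 of 32 tested (25%) did not overlap between genotypes against 9.61% of all genes. *Tubb2b* (25.7 CPM in WT, 15.3 CPM in MT, log2 fold change -0.75 ± 0.16), *Ttll3* (14.8 and 21.9 CPM, 0.66 ± 0.19), *Ttll9* (25.6 and 32.1 CPM, 0.35 ± 0.10) and *Agbl2* (43.7 and 55.2 CPM, 0.40 ± 0.16) kept their direction and did not overlap. *Tuba1c*, *Tubb2a*, *Tubb5*, *Ttll13* and *Ttll11* overlapped there. The leading isotypes did not overlap within this cluster. *Tuba1a* was 2382, 2370 and 2298 CPM in Multiciliated3 of the WT mice and 2053, 2122 and 2086 CPM in the MT mice, lower in each MT mouse (-0.17 ± 0.06). *Tubb4b* was 2966, 3512 and 2893 CPM in WT and 2723, 2557 and 2689 CPM in MT (-0.23 ± 0.09). The adjusted p from limma voom was 0.978 for both. *Tuba1b* and *Ttll12* were also lower in each MT mouse within Multiciliated3 (-0.08 ± 0.07 and -0.21 ± 0.13). In Multiciliated1 and Multiciliated2 the genotypes overlapped for *Tuba1a* and *Tubb4b*.

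The other 3 clusters were described over the same 33 genes, without a test of single genes. In Multiciliated1 1 of 33 (3.03%) did not overlap, against 7.83% of all genes. This was *Agbl2*, at 6.36, 7.21 and 2.15 CPM in the WT mice and 10.5, 10.07 and 9.62 CPM in the MT mice. In Multiciliated2 2 of 33 (6.06%) did not overlap, against 7.83% of all genes, *Ttll10* (3.32 CPM in WT, 5.79 CPM in MT) and *Tubb6* (2.93 and 6.41 CPM). Multiciliated4 could be compared over 2 WT mice and 3 MT mice, since WT mouse 2 had under 20 cells there, and 5 of 33 (15.2%) did not overlap, against 15.9% of all genes. *Tubb2b* was 41.9 and 39.6 CPM in Multiciliated4 of these WT mice and 24.9, 9.74 and 18.7 CPM in the MT mice. *Tuba4a* (64 CPM in WT, 34.7 CPM in MT) and *Tubb5* (67.9 and 45.9 CPM) were also lower in each MT mouse, and *Agbl3* (13.6 and 29.2 CPM) and *Ttll13* (1.91 and 7.01 CPM) higher. With 1627836 UMIs in the whole cluster, such low levels rest on few UMIs per mouse. The left-out WT mouse 2 had 582 multiciliated cells, 576 of them outside this cluster, so its values rest on very few UMIs. It was above every MT mouse for *Agbl3* (48.9 CPM) and *Ttll13* (12.2 CPM), against the direction given. For *Tuba4a* (24.4 CPM) it lay among the MT mice. For *Tubb2b* (48.9 CPM) and *Tubb5* (97.8 CPM) it lay above them, in the direction given. In none of these 3 clusters was the share of the set above that of all genes.

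**Figure D5:**
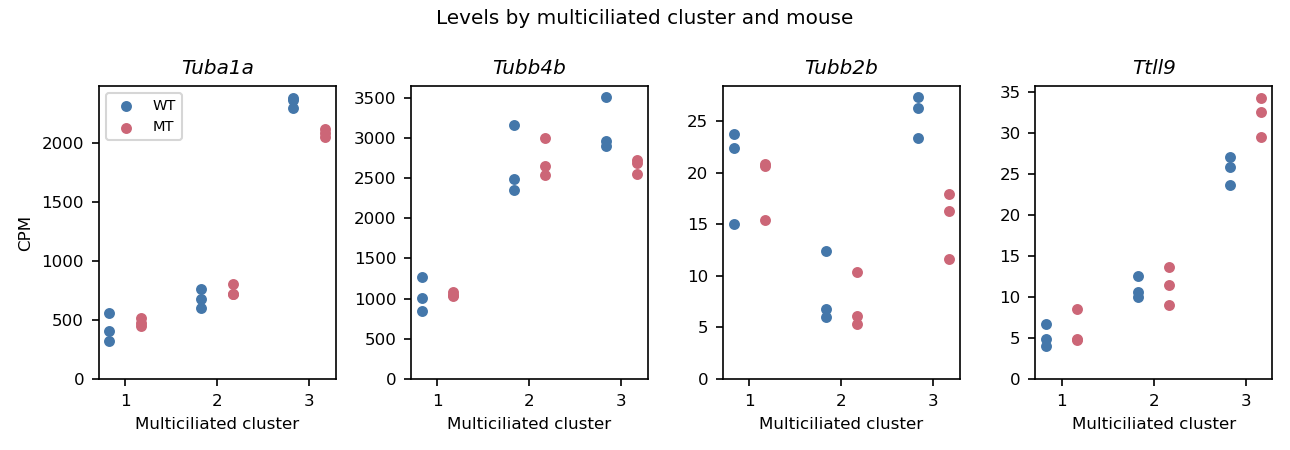
Points give the level in CPM (vertical axis from 0) of *Tuba1a*, *Tubb4b*, *Tubb2b* and *Ttll9* in Multiciliated1, Multiciliated2 and Multiciliated3 of each mouse, WT in blue and MT in red. Among these 3 clusters the genotypes are apart in Multiciliated3 alone for these 4 genes, *Ttll9* higher and the other 3 lower in MT. Multiciliated4, where *Tubb2b* is also apart, is not plotted.

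The isotype shares were compared over mice. *Tuba1a* made up 62.9%, 59.8% and 66.0% of the alpha-tubulin UMIs of multiciliated cells in the WT mice and 62.2%, 70.2% and 63.6% in the MT mice. The means differed by 2.44 percentage points, and the groups overlapped (two-sided exact permutation test over mice, p = 0.5). *Tubb4b* made up 91.8%, 92.8% and 92.7% of beta-tubulin UMIs in WT and 92.6%, 94.1% and 93.2% in MT, a difference of 0.826 points (exact p = 0.3). With 3 mice against 3 this test cannot give a p below 0.1. *Tubb2b* supplied 0.758% ± 0.0399 of beta-tubulin UMIs in WT and 0.584% ± 0.0722 in MT.

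In secretory cells 0 of 29 tested genes of the set were called, beside 1 of 13610 genes (0.00735%), and 0 had an unadjusted p under 0.05 in limma voom against 1.9% of all genes. Limma-trend also called 0. *Ttll3* was the single gene of the set that did not overlap (5.5% of all genes did not), at 3.39, 3.31 and 3.12 CPM in WT and 3.03, 3.00 and 2.87 CPM in MT. That is the opposite order to multiciliated cells. *Tppp3* was 6.24 to 8.44 CPM in WT and 7.97, 10.3 and 15.7 CPM in MT, with MT1383, the mouse with the largest share of multiciliated cells, highest. *Tuba1a* was also highest there, with 28.3 CPM in MT1383 and 13.0 to 18.9 CPM in the other 5 mice. Over all mice both were at or near the range of the ciliary marker shares given above (0.639% and 1.28% of their multiciliated level). The source of this signal was not tested.

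In basal cells 0 of 29 tested genes were called, beside 0 of 14615 genes (0%), 0 had an unadjusted p under 0.05 in limma voom against 2.29% of all genes, and 0 did not overlap against 7.96%. Limma-trend also called 0. *Tuba1a*, *Tuba1c*, *Tuba4a* and *Tuba8* had log2 fold changes from -0.36 to -0.03 in basal cells, none past the test. *Tuba1b* was 159.7 ± 3.18 CPM in WT and 167 ± 19.5 CPM in MT, with a fitted log2 fold change of -0.00099. *Tubb4b* was 530 ± 45.5 CPM in WT and 491 ± 58.2 CPM in MT.

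Whether the genotype effect differed between classes was tested with the mouse as a block. Over 15942 genes 0 (0%) were called for multiciliated against secretory cells and 0 (0%) against basal cells in limma voom, with 353 and 703 at an unadjusted p under 0.05. Of the 34 genes of the set tested, 0 were called and 2 had an unadjusted p under 0.05 in each. *Ttll3* had the lowest p in both, with a difference in log2 fold change of 0.71 ± 0.22 against secretory and 0.53 ± 0.19 against basal cells.

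Of 23 other genes of the pathway, 22 had a row in the table and 21 were tested in each class. They comprised tubulin folding cofactors, subunits of the gamma-tubulin ring, partners of TTLL1, further modifying enzymes and tubulin-like genes. In multiciliated, secretory and basal cells 0 of 21 were called by limma voom, and 0 had an unadjusted p under 0.05, against 4.32%, 1.9% and 2.29% of all genes. In multiciliated cells their median log2 fold change was -0.00081, with 10 above and 11 below 0, and 3 (14.3%) did not overlap, near the 10% of all genes. These were *Ttl*, the ligase that restores the final tyrosine (12.1 ± 0.394 CPM in WT, 13.6 ± 0.938 in MT), *Sirt2*, a tubulin deacetylase (41.6 ± 1.32 and 46.4 ± 3.78 CPM), and *Tppp* (1.94 ± 0.163 and 2.59 ± 0.559 CPM). In secretory cells 1 of 21 (4.76%, against 5.5% of all genes) did not overlap, *Tppp* at 0.421 ± 0.1 CPM in WT and 0.606 ± 0.0554 CPM in MT. In basal cells it was also 1 (4.76%, against 7.96%), the folding cofactor *Tbca* at 331 ± 14.6 and 361 ± 2.52 CPM. *Agtpbp1*, a deglutamylase, was 28.2 ± 1.77 CPM in WT and 28.9 ± 0.788 CPM in MT.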

How the data were processed

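The authors processed the reads with Cell Ranger (version 7.1.0 in the submitters' processing notes, which differs from the version in the paper's methods) against mm10. They removed cells with high mitochondrial content or few genes, treated cells with many genes as potential doublets, and clustered and named the cells with Seurat. The deposited table holds whole UMI counts per gene and cell. Its cells have 2501 to 7999 genes, and 655 have over 7500. MT libraries could be tied to their group but not to a numbered animal.

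UMIs were summed per mouse and cell type or class. A spread is given for mice with at least 20 cells. Genes with low counts were left out (at least 10 counts in 3 mice after scaling for depth, and 15 in total), counts were scaled by trimmed means, and limma 3.58.1 (voom, R 4.3.3) was fitted across all genes. Every value was whole and each cell summed to the total in the authors' cell table, but the unusual separator of the files kept their columns from being declared as counts, so limma took the place of the planned negative binomial test. Isotype shares were compared with exact permutation tests (scipy 1.17.1). The code was tested on simulated data. Floors for 0 UMIs cover counting error only. The 95% intervals of fold changes and the p-values come from limma and measure only the spread between these mice. The genes and lists were chosen with earlier results of these data known. Values over cell types are given for genes reaching 10 CPM in a cell type of at least 100 cells. In MT against WT, genes are named that passed the test, did not overlap or had an unadjusted p under 0.05, with the leader of each family.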

Additional observations from a re-analysis of the deposited data

How the results depend on the processing

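The count of 0 genes called in multiciliated cells stayed 0 under all 18 alternatives (other scaling, filters, limma-trend, thinned cells, each mouse left out, single clusters), and so did the counts in secretory and basal cells under 13 alternatives each and those for the differences between classes under 7 each. Both limma-trend and the sums without Multiciliated4 were added once the data had been seen. The *Tuba1a* share (MT minus WT) was -0.798 points in Multiciliated3 cells alone, and 0.0147 to 3.99 points with a mouse left out. The *Tubb4b* share kept its direction (0.435 to 1.17 points with a mouse left out). The *Tuba1a* log2 fold change turned to -0.17 in Multiciliated3 alone, -0.13 at equal cluster composition and -0.010 without Multiciliated1 cells, and ran from -0.083 to 0.112 with a mouse left out, below 0 without WT replicate 2 (-0.025) and without MT1306 (-0.083). *Tppp3* turned to -0.090 in Multiciliated3 alone and -0.042 at equal composition. In Multiciliated2 alone *Ttll3* was -0.27, *Ttll13* -0.21, *Tuba1b* 0.0066 and *Tubb4b* 0.030. *Tubb2b* (-0.75 to -0.40), *Agbl2* (0.28 to 0.71) and *Ttll9* (0.12 to 0.49) kept their direction under all alternatives run. So did *Tuba1c*, *Tubb2a* and *Tubb5* (18 alternatives each) and *Ttll11* (16). The adjusted p from limma was no lower than 0.486 for any of them, and several sizes moved. At equal cluster composition *Ttll9* went from 0.41 to 0.17, *Ttll13* from 0.34 to 0.11, *Tuba1c* from -0.25 to -0.13 and *Tubb5* from -0.24 to -0.09. In Multiciliated2 alone *Ttll9* was 0.12 and *Agbl2* 0.28. Without MT1306 *Tubb5* was -0.14 and *Ttll11* went from 0.34 to 0.22, and without MT1383 *Tubb2a* went from -0.29 to -0.19 and *Ttll11* to 0.59. The causes were not tested. The planned negative binomial fits were not run. No paired analysis was possible, because the sources used here do not say which WT and MT mice shared a litter.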
